A study of Mus musculus with 2 samples.

Results

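This account concerns 9 genes whose proteins coat, package and store messenger RNA in messenger ribonucleoprotein particles (mRNPs): Serbp1, Ybx1, Ybx3, Pabpc1, Pabpc4, Larp1, Caprin1, G3bp1 and Hdlbp. They were taken by gene name from tables of N6-methyladenosine (m6A) along transcripts of mouse retinal organoids, in which 8262 named genes were listed in all. The genes were selected on the function of their products, by gene name, after the fractions, coverage and site counts of these same libraries had been examined. Serbp1 was taken with its high count of sites known, a count in which the same base can enter once per transcript. The values below are therefore descriptions and carry no test. All 9 genes were listed in both libraries, where 5699 (replicate 1) and 8057 (replicate 2) of the 8262 were listed. Of the 9, 7 had at least 1 site measured in both libraries, as had 1887 of all named genes. The organoids, aggregates of early retinal tissue grown from stem cells, came from the mouse line Rx:GFP, in which a green fluorescent protein reports activity of the eye-field gene Rx. Their genotype is given as WT, and both libraries were made at day 6 after 6 days with AGN at 0.1 µM, an agent that the labels do not spell out. Each library (replicate 1 and replicate 2, n = 2) held native poly(A) RNA read directly on a nanopore flow cell of its own. There was no untreated or mutant group, and nothing in the labels says that the replicates were separate cultures, so an SD over them may be technical.

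Packaging proteins bind an mRNA from the poly(A) tail to the coding region and set whether it is translated, stored or drawn into granules under stress. m6A is the most common internal mark of mRNA, is written by the METTL3 complex in the DRACH sequence context, and is bound by YTH domain readers that affect decay and translation. The values here are about the mRNAs that encode packaging proteins, not about the RNAs those proteins bind.

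The tables listed positions at 4 motifs of 5 bases only. They are shown because the fraction modified differed by motif, and the capital marks the central adenosine that m6A occupies in this context:
Ending in A, 12 of the 38 sites described below: ggAca
Ending in C, 11 sites: ggAcc
Ending in T and starting with G, 9 sites: ggAct
Ending in T and starting with A, 6 sites: agAct
For each listed position the tables give a fraction modified (the share of reads called modified, with no stated denominator) and a coverage (the number of reads over the position). At the listed positions of the 9 genes, 19.2% of the fractions in replicate 1 and 21.7% in replicate 2 were whole multiples of 1 over the coverage, within 5e-05 of the fraction, so for most the coverage was not the denominator. Reads printed beside a fraction give the coverage of the position, not the number of reads that were called. A site was a listed position with at least 20 reads in its library, and a shared site was one found in both libraries at the same position of the same transcript. The 9 genes had 78 listed positions in replicate 1 and 115 in replicate 2, of which 43 and 74 were sites. Nearest the minimum, position 1248 of Ybx3 was shared with 21 reads in replicate 1, and positions 4219 and 5787 of Hdlbp were left out with 19. Over all genes the numbers of sites were 6463 and 16212. The 9 genes were more deeply covered, with a median of 30.5 and 33 reads per listed position, against 10 and 12 over all genes. Positions are counted in nucleotides along the mature transcript, so each lies in an exon. Whether it lies in coding sequence or an untranslated region was not analysed here. Gene intervals are printed as deposited, with no build named for them. The submitters' processing notes name mm10, but 8 of the 9 starts differ by at least 23040 bases from the RefSeq starts in GRCm38.p6.

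As a check on the tissue, the 9 eye-field and retinal progenitor genes reported here were all listed in each replicate, and 6 had a shared site. None of 5 pluripotency genes was listed in either. A gene is listed only where a position has 5 or more reads, so absence does not separate low RNA from RNA without the 4 motifs.

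Most sites of the mRNP packaging genes were partly modified. The 9 genes contributed 38 of the 5221 shared sites, on 11 transcripts of 7 genes, with a median fraction of 0.317 ± 0.0187 (SD of the replicate medians, n = 2) and single means from 0.0206 to 0.951. Over all shared sites the median was 0.368 ± 0.00940 (SD, n = 2). Without the minimum of 20 reads 61 positions were shared, and 25 were when each gene kept 1 transcript. A fraction of at least 0.8 in both replicates was found at 4 sites, which is 10.5% of 38 against 17.1% of all shared sites. These were position 1108 of Caprin1, 2128 of Serbp1, 388 of Ybx1 and 889 of Ybx3, and each is a GGACA. That motif made up 31.6% of the 38 sites and 38.3% of all shared sites, so the 2 sets differ in motif. With a minimum of 50 reads 1 of them was left, the site in Ybx1, and without a minimum there were 8 such positions. The share over all genes was taken at 20 reads only. A fraction of at most 0.1 in both replicates was found at 4 sites as well (10.5%, against 10.1% of all), 1 each in Caprin1, G3bp1, Pabpc1 and Serbp1.

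The replicates gave close values at these sites. The absolute difference had a median of 0.0310 and a maximum of 0.169, against a median of 0.0517 over all shared sites. With its sign, replicate 2 minus replicate 1, the median was -0.0158 (-0.0043 over all). None of the 38 differed by more than 0.2, where 5.94% of all shared sites did. At 26 of the 38 both libraries had 50 or more reads, and 1827 of all 5221 sites were that deep. Within classes of depth, the root mean square difference was 0.0482 for the 12 sites with 20 to 49 reads in the shallower library (0.114 over all such sites), 0.0743 for the 11 with 50 to 99 reads (0.0752) and 0.0285 for the 15 with 100 or more (0.0491). The fraction was lower in replicate 2 at 25 of the 38 sites (65.8%, against 52.3% of all). The 38 sites share 2 libraries and, in part, the same bases, and an exact paired permutation of 2 replicates cannot give a p-value under 0.5, so this was not tested.

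**Figure D1:**
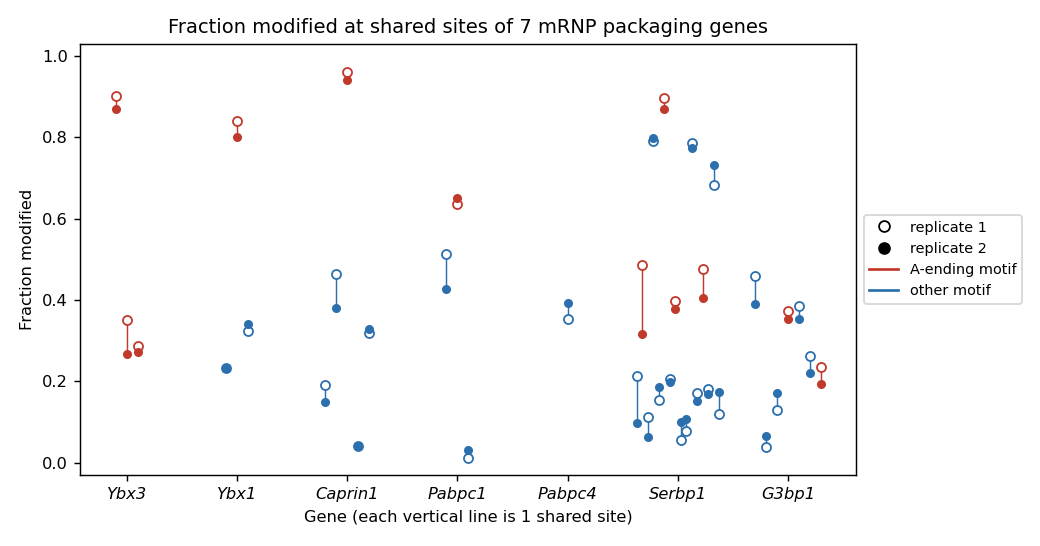
Fraction modified (vertical axis) at each of the 38 shared sites of 7 genes, with replicate 1 as open and replicate 2 as filled points joined by a line. Red marks motifs ending in A (GGACA) and blue the other 3; the highest sites, from 0.801 to 0.962, are red, while the blue points near 0.8 all belong to Serbp1.

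By motif, the 12 GGACA sites had a median fraction of 0.421, against 0.324 for 9 GGACT, 0.251 for 6 AGACT and 0.156 for 11 GGACC sites. Over all shared sites the medians were 0.680, 0.256, 0.259 and 0.221. GGACA exceeded the other 3 motifs together by 0.270 in replicate 1 and 0.20 in replicate 2 at the packaging genes, and by 0.438 and 0.427 over all genes. At 7 of the 12 GGACA sites the mean fraction was under 0.5, where 34.8% of all GGACA sites lay that low. These 7 are the Serbp1 position shared on 3 transcripts, a pair of G3bp1 sites and a pair of Ybx3 sites on different transcripts. Among the 26 sites at the other motifs, 3 had a mean of 0.5 or more, against 23.0% of all such sites, and these 3 are a single position of Serbp1 seen on 3 transcripts.

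Serbp1 encodes an arginine- and glycine-rich RNA-binding protein that associates with ribosomes and can occupy the mRNA channel of ribosomes that are not translating. The gene (chromosome 6, 67215160 to 67274720) was listed on 4 transcripts, and 3 of them held its 16 shared sites. The sites of different transcripts were set side by side where the motif was the same and at least 2 positions lay at a constant offset. ENSMUST00000042990.6 and ENSMUST00000203077.2 were offset by 387 nt at the first pair of aligned sites and by 432 nt at the following ones, a step of 45 nt between them. Counted once per aligned position, the 16 shared sites became 7.

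The site with the highest fraction outside GGACA was a GGACT of Serbp1. On ENSMUST00000042990.6 it lies at position 1810, with 0.792 over 102 reads (replicate 1) and 0.799 over 218 (replicate 2). On ENSMUST00000203077.2 the aligned position 1378 had 0.786 over 138 reads and 0.774 over 322 reads. On ENSMUST00000203436.2 position 1433 had 0.682 over 33 reads and 0.732 over 59 reads. All 6 values lay at 0.682 or more, and the least covered transcript gave the lowest of them in each replicate.

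An AGACT stood 29 nt further along each of these transcripts, and it was modified far less. Its fraction was 0.155 and 0.186 at position 1839 of ENSMUST00000042990.6, 0.172 and 0.152 at position 1407 of ENSMUST00000203077.2, and 0.120 and 0.174 at position 1462 of ENSMUST00000203436.2 (replicates 1 and 2). The gap between the GGACT and the AGACT ranged from 0.558 to 0.637 over the 3 transcripts and both replicates, beyond the largest replicate difference at either position, 0.0539.

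The remaining Serbp1 sites covered the whole range. The GGACA at position 2128 of ENSMUST00000042990.6, the highest of the gene, had 0.897 over 46 reads (replicate 1) and 0.870 over 110 (replicate 2). The other GGACA was intermediate. It had 0.486 and 0.317 at position 1115 of ENSMUST00000042990.6 (60 and 139 reads), 0.398 and 0.378 at position 728 of ENSMUST00000203077.2 (134 and 312 reads), and 0.476 and 0.406 at position 738 of ENSMUST00000203436.2 (33 and 56 reads). The difference of 0.169 at position 1115 was the largest between replicates at any of the 38 sites, above the root mean square of 0.0752 over all sites of that depth.

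The GGACC sites of Serbp1 were low. Near the 5′ end the fraction was 0.214 and 0.0986 at position 551 of ENSMUST00000042990.6, and 0.207 and 0.199 at the aligned position 164 of ENSMUST00000203077.2. Further along it was 0.113 and 0.0629 at position 1734 of the former, 0.0789 and 0.108 at position 1302 of the latter, and 0.182 and 0.170 at position 1357 of ENSMUST00000203436.2. The lowest of the gene, position 1061 of ENSMUST00000203077.2, had 0.0556 over 141 reads and 0.100 over 346 reads. In each replicate the third transcript was the highest at the second of these positions.

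Averaged over their sites, the 3 transcripts gave 0.416 ± 0.0381 (ENSMUST00000042990.6, 6 sites), 0.284 ± 0.00159 (ENSMUST00000203077.2, 6 sites) and 0.368 ± 0.00385 (ENSMUST00000203436.2, 4 sites; each SD, n = 2). These averages run over different positions. At the 5 Serbp1 positions shared on more than 1 transcript, the means of the transcripts lay within 0.0235 to 0.0887 of each other. Together with a Caprin1 position there were 6 such positions, with a median range of 0.0709 across transcripts. The range exceeded the largest replicate difference at 3 of the 6. With a minimum of 50 reads in each library, which leaves out ENSMUST00000203436.2 and keeps 4 Serbp1 positions on 2 transcripts, the median range was 0.0112. How reads were divided among transcripts that share a sequence is not given in the sources used here, so aligned values need not be independent.

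**Figure D2:**
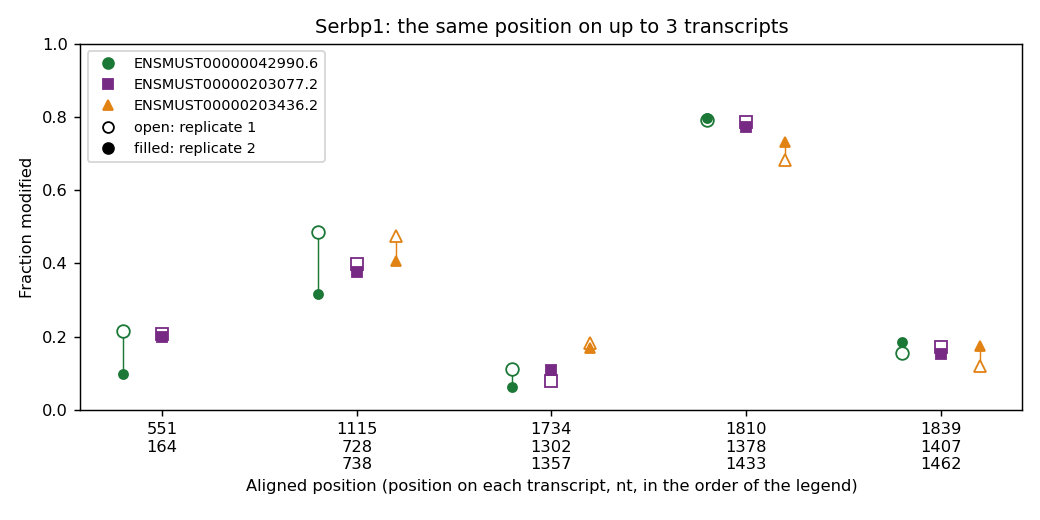
Fraction modified (vertical axis) at 5 positions of Serbp1, each shown on 2 or 3 transcripts (colour and shape), with replicate 1 open and replicate 2 filled; the horizontal labels give the position on each transcript in nt. The profile of a high GGACT (0.682 to 0.799) followed by a low AGACT (0.120 to 0.186) recurs on all 3 transcripts.

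Ybx1 and Ybx3 encode Y-box proteins, whose cold-shock domain binds mRNA along its length and which are among the main packaging proteins of cytoplasmic mRNA. Ybx1 (chromosome 4, 119135178 to 119151801) was the deepest gene of the group, with up to 429 and 920 reads. On its transcript ENSMUST00000079644.12 the GGACA at position 388 had 0.841 over 407 reads (replicate 1) and 0.801 over 877 (replicate 2). The GGACC at position 136 had 0.233 over 351 reads and 0.232 over 790, and the AGACT at position 501 had 0.323 over 429 and 0.342 over 920. The 3 sites kept the same order in both libraries, and the gaps between them were larger than the replicate differences, of which the largest was 0.0391.

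Ybx3 (chromosome 6, 131341818 to 131365439) had 3 shared sites, all GGACA. At position 889 of ENSMUST00000032309.12 the fraction was 0.902 over 49 reads and 0.870 over 137. At position 1417 of that transcript it was 0.350 over 54 reads and 0.268 over 150. Position 1248 of ENSMUST00000087865.3 had 0.286 over 21 reads and 0.273 over 51. Too few positions were listed to align these transcripts, so whether 1248 is the same base as a site of ENSMUST00000032309.12 was not settled. On ENSMUST00000032309.12 the same motif was thus at 0.870 or more at one position and below 0.4 at another, in both replicates.

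Pabpc1 encodes the main cytoplasmic poly(A)-binding protein, and Pabpc4 a related one. In Pabpc1 (chromosome 15, 36595905 to 36609912; ENSMUST00000001809.14) the GGACA at position 788 had 0.636 over 56 reads (replicate 1) and 0.652 over 350 (replicate 2). The GGACC at position 281 had 0.514 over 51 reads and 0.428 over 301, the highest of the 11 shared GGACC sites in each replicate. The other GGACC, at position 2391, had 0.0106 over 214 reads and 0.0305 over 729, the lowest mean of the 38. Equal motifs of this transcript therefore differed by 0.503 and 0.397 in the replicates. Pabpc4 (chromosome 4, 123156144 to 123192718) had 1 shared site, a GGACC at position 2769 of ENSMUST00000080178.12 with 0.353 over 30 reads and 0.393 over 65.

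Caprin1 and G3bp1 encode RNA-binding proteins that bind each other, and G3bp1 nucleates stress granules. In Caprin1 (chromosome 2, 103593286 to 103627994) the GGACA at position 1108 of ENSMUST00000111147.7 had 0.962 over 29 reads and 0.940 over 80, the highest mean of the 38. The GGACC at position 1892 of that transcript had 0.0417 over 31 reads and 0.0400 over 90. On ENSMUST00000028607.12 a pair of GGACT sites lay 25 nt apart. Position 2430 had 0.192 over 58 reads and 0.150 over 162, and position 2455 had 0.465 over 58 and 0.381 over 164. The second exceeded the first by 0.274 and 0.232 in the replicates, more than either differed between libraries (0.0420 and 0.0841). The position aligned with 2455 on the other transcript, 2432, had 0.320 over 30 reads and 0.328 over 92.

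G3bp1 (chromosome 11, 55360511 to 55395664; ENSMUST00000018727.3) had 7 shared sites, none above 0.460 in either library. The highest was the AGACT at position 665, with 0.460 over 73 reads and 0.391 over 207, also the site of its largest replicate difference. The AGACT at position 2467 had 0.385 over 68 and 0.354 over 140, and the GGACA at position 2232 had 0.372 over 123 and 0.354 over 272. The lowest were the GGACT sites at 1813, with 0.0392 over 126 reads and 0.0648 over 277, and at 2123, with 0.130 over 115 and 0.170 over 268. The second GGACA, at position 2689, was also low, with 0.235 over 67 reads and 0.194 over 140. The site at 1813 follows directly on an AGACT at position 1808, 5 nt before it, so that the adjoining motifs read:
G3bp1 positions 1808 and 1813: agActggAct
The first of them was listed in replicate 1 only, with 0.152 over 126 reads.

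Averaged over shared sites, the order of the genes was Ybx3 (0.492 ± 0.030), Ybx1 (0.462 ± 0.00497), Caprin1 (0.382 ± 0.0199), Pabpc1 (0.378 ± 0.0118), Pabpc4 (0.373 ± 0.0283, 1 site), Serbp1 (0.354 ± 0.0127) and G3bp1 (0.259 ± 0.0136; each SD, n = 2). Ybx3 and Ybx1 differed by no more than the SD of Ybx3. The replicate values of Caprin1, Pabpc1 and Pabpc4 overlapped, as did those of Pabpc4 and Serbp1. G3bp1, at 0.269 and 0.25, lay below the lower value of every other gene, the nearest being 0.345 in Serbp1. The order changed with the minimum. With 50 reads Ybx3 fell to 0.309 (1 site), Caprin1 to 0.297 (2 sites) and Serbp1 to 0.316 (10 sites), so that Ybx3 and Caprin1 lay below Pabpc1 and Serbp1. Without a minimum Ybx1 (0.515) lay above Ybx3 (0.492) and Pabpc4 (0.447) came next, followed by Pabpc1 (0.378), Caprin1 (0.337), Serbp1 (0.333) and G3bp1 (0.312). The averages run over different motifs and numbers of sites.

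Hdlbp and Larp1 had no shared site, as their coverage in replicate 1 did not exceed 19 and 10 reads. Hdlbp (chromosome 1, 93333662 to 93406537) encodes vigilin, a protein of many KH domains that binds mRNAs at the endoplasmic reticulum. In replicate 2 it had 22 sites on 2 transcripts. Its 10 GGACA sites ranged from 0.0698 to 0.955 with a median of 0.910, against 0.667 over all GGACA sites of replicate 2. Of the 10, 6 were at 0.8 or more (37.7% of all 5773 were), and a pair of these, 4237 of ENSMUST00000042498.13 and 4219 of ENSMUST00000170883.7, is 1 aligned position. The 12 sites at other motifs ranged from 0 to 0.697 with a median of 0.156 (0.238 over all). The one low GGACA, position 5787 of ENSMUST00000170883.7, had 0.0698 over 68 reads, and 0.0667 over 19 reads in replicate 1.

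The shallow values of Hdlbp in replicate 1 lay near those of replicate 2. At the 10 positions listed in both, the median absolute difference was 0.0740 and the largest 0.197. On the better covered transcript the GGACA at position 4219 had 1 over 19 reads (replicate 1) and 0.942 over 61 (replicate 2), and that at 5371 had 0.857 over 15 and 0.793 over 58. Within replicate 2, 9 aligned positions had 10 or more reads on both transcripts, and the median absolute difference between transcripts was 0.0635 and the largest 0.154. Larp1 (chromosome 11, 57899890 to 57952860), whose protein binds the cap and the terminal oligopyrimidine tract of ribosomal protein mRNAs, reached at most 17 reads in replicate 2. Its 4 positions listed in both libraries differed by 0.167 to 0.333, and no level can be given at that depth.

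**Figure D3:**
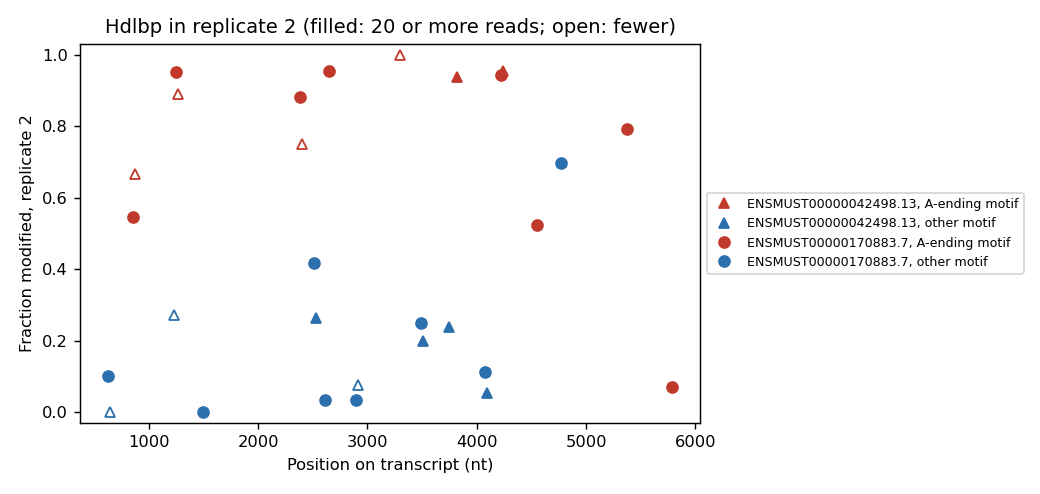
Fraction modified in replicate 2 (vertical axis) along the Hdlbp transcripts (horizontal axis, position in nt), with triangles for ENSMUST00000042498.13 and circles for ENSMUST00000170883.7; filled points have at least 20 reads. Red points (GGACA) lie mostly above 0.5 with 1 exception at position 5787, and blue points (other motifs) mostly below.

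Coverage along the transcripts also differed in shape among the genes. The RNA002 chemistry reads an mRNA from its 3′ end, so coverage commonly rises toward the 3′ end of a transcript. A rise of at least 1.5 times from a shared site to the next one in both replicates was seen for 3 of the 27 successive pairs in these genes (1.99% of all such pairs). The opposite, a fall to 0.667 or less in both replicates, was seen for 2 pairs, against 1.44% of all. In Serbp1 (ENSMUST00000042990.6) coverage fell from 107 reads at position 1839 to 46 at position 2128 in replicate 1, and from 223 to 110 in replicate 2. In G3bp1 it fell from 123 reads at position 2232 to 68 at position 2467, and from 272 to 140. The ratio was 0.430 and 0.493 in Serbp1, and 0.553 and 0.515 in G3bp1. Beyond the fall, G3bp1 coverage was level, at 67 to 68 and 140 to 142 reads as far as position 2689. Transcript ends were not analysed here.

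**Figure D4:**
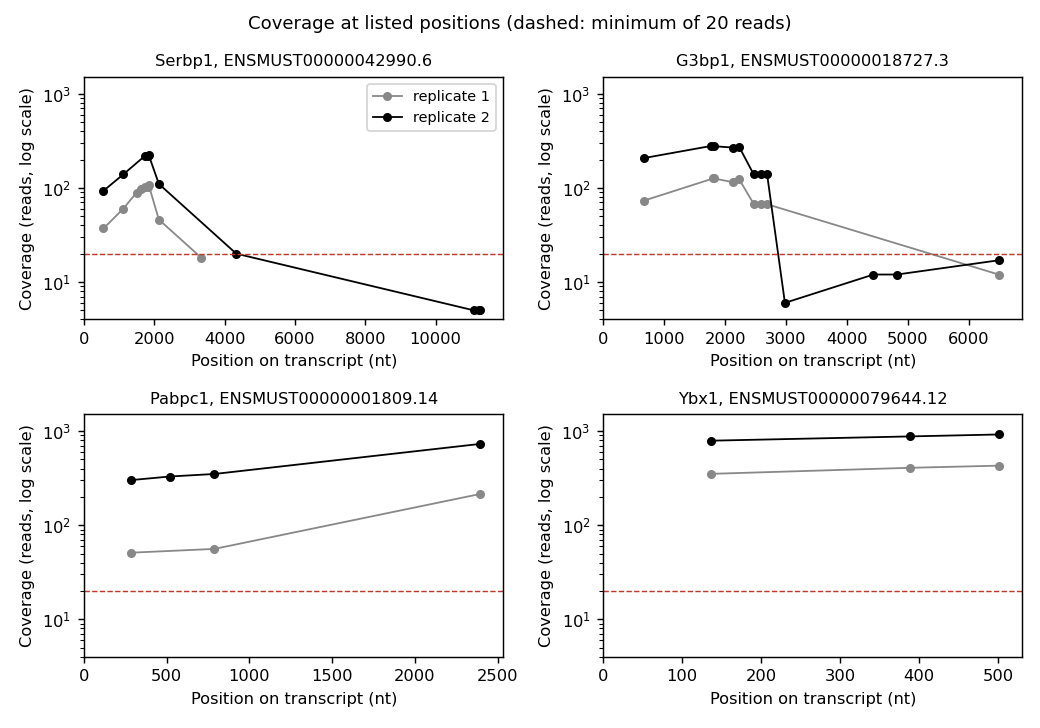
Coverage in reads (vertical axis, log scale) at the listed positions along 1 transcript each of Serbp1, G3bp1, Pabpc1 and Ybx1 (horizontal axis, position in nt), with replicate 1 in grey, replicate 2 in black and the minimum of 20 reads dashed. Serbp1 and G3bp1 show the fall after positions 1839 and 2232 in both replicates, and the Pabpc1 curves lie farthest apart at positions 281 and 788.

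The libraries covered Pabpc1 unequally, an observation made after the values were seen. Over all shared sites the ratio of coverage, replicate 2 to replicate 1, had a median of 2 (interquartile range 1.66 to 2.40), and over the 38 it was 2.33. At Pabpc1 it was 5.90-fold at position 281, 6.25-fold at 788 and 3.41-fold at 2391. The ratio at position 788 was the highest of all 5221 shared sites, and the Pabpc1 median of 5.90 was the highest of 1887 named genes with a shared site, the next being 4.95. That rank rests on both of the higher positions, as the Pabpc1 median was 4.65 without position 788 and 4.83 without position 281. Hdlbp, which had no shared site, also had high ratios: 3.15 to 6.60 at the 10 positions listed in both libraries, with a median of 4.33, over 19 or fewer reads in replicate 1. A ratio of at least 3 occurred at 4 of the 38 sites (10.5%, against 7.57% of all), the fourth being position 2432 of Caprin1 at 3.07. Coverage at position 281 was 0.238 of that at 2391 in replicate 1 and 0.413 in replicate 2. For Ybx1 the ratio of position 136 to position 501 was 0.818 and 0.859. Reads shared with near-identical copies of Pabpc1 could have been split in the counting, and their part in these ratios was not tested. The fractions at the 3 positions differed between replicates by 0.0857, 0.0156 and 0.0199.

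**Figure D5:**
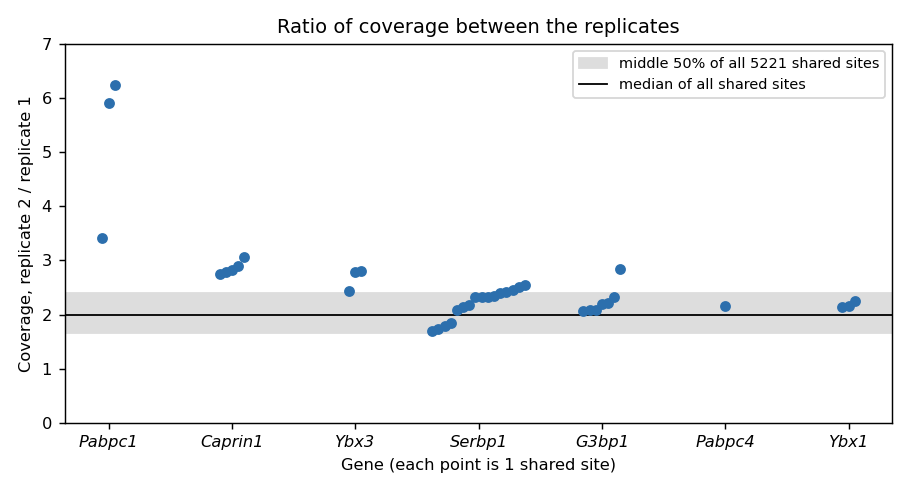
Ratio of coverage in replicate 2 to replicate 1 (vertical axis) at each shared site of 7 genes, with the median of all 5221 shared sites as a line and their interquartile range in grey. The 3 Pabpc1 sites lie at 3.41 to 6.25, above every other point, and the Ybx1 sites lie at 2.14 to 2.25.

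Some positions were listed in 1 library alone although the other had 20 or more reads at other listed positions of the transcript. Of the sites that were either shared or flanked in the other library by listed positions of 20 or more reads on both sides, 10 of 86 in these genes, counted in each library, were not listed there (11.6%, against 7.69% of all). Over all genes this share differed by motif, at 12.2% for AGACT, 9.50% for GGACC, 6.44% for GGACT and 5.39% for GGACA. None of the 10 was a GGACA, so the motif may enter the comparison, which was not tested. In G3bp1 the AGACT at position 1777 had 0.542 over 279 reads in replicate 2 and was not listed in replicate 1, where the flanking sites had 73 and 126 reads. In Pabpc1 the GGACC at position 518 had 0.197 over 329 reads in replicate 2, and its neighbours 51 and 56 reads in replicate 1. For Serbp1 the GGACT at position 1633 of ENSMUST00000042990.6 (0.173 over 97 reads) and its aligned position 1256 of ENSMUST00000203436.2 (0.0938 over 36 reads) were both listed in replicate 1 only. The Caprin1 AGACT positions 1430 and 1614 of ENSMUST00000028607.12 (0.548 over 120 reads and 0.0500 over 132) and their aligned positions 1407 and 1591 on ENSMUST00000111147.7 (0.563 over 82 and 0.158 over 86) were all listed in replicate 2 only. On ENSMUST00000028607.12 replicate 1 has no listed position before them, so that pair is not among the 10. Other aligned positions were not absent together. The GGACC at position 1493 of Serbp1 ENSMUST00000042990.6 was listed in replicate 1 only, while its aligned position 1061 was listed in both. In Caprin1 position 2407 of ENSMUST00000111147.7 and position 1915 of ENSMUST00000028607.12 were listed in replicate 2 only, while the positions aligned with them, 2430 and 1892, were listed in both. The criterion for listing a position is not given in the sources used here, so an unlisted position is not an unmodified one.

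Genes with a similar number of sites and level to Serbp1 were sought by rule. Among 196 genes whose best covered transcript had 5 to 7 shared sites, the closest to the mean of 0.284 on ENSMUST00000203077.2 were Hmgcs1 (0.282), Ipo4 (0.281) and Ddx41 (0.290), each with 5 sites. The likeness is in the level over 2 libraries only.

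A further list of 41 genes for mRNA-binding and granule proteins was set beside the packaging genes. In it 27 genes were listed in replicate 1 and 37 in replicate 2, and 13 had 30 shared sites with a median fraction of 0.249. Of these sites 4 were at 0.8 or more in both replicates (17.1% of all shared sites were), 5 at 0.1 or less (10.1% of all), and none differed by more than 0.2 (5.94% of all did). Those with at least 3 shared sites were Strap, which encodes a WD-repeat protein (0.492 ± 0.0105 over 3 sites), Paip2, which encodes an inhibitor of poly(A)-binding protein (0.245 ± 0.0365 over 3), Elavl1, which encodes the AU-rich element binding protein HuR (0.264 ± 0.0202 over 4), and Lsm14a, which encodes a P-body protein (0.147 ± 0.0246 over 4; each SD, n = 2). Single sites of these 4 genes ranged from 0.0351 in Lsm14a to 0.977 in Strap.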

How the data were processed

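Per the labels' protocols, 1 µg of poly(A) RNA per library was sequenced with the RNA002 kit for about 48 h. The submitters' processing notes name the build mm10; base caller, aligner, modification caller and transcript reference are not given in the sources used here. Coverage is a read count per position as deposited by the authors, with no position under 5 reads. The fraction modified is a fraction from 0 to 1 as deposited by the authors, with no stated denominator and mostly no multiple of 1 over the coverage, so no interval was set on it and no test on reads was run. The plus tables were used. The minus tables (11 and 35 positions) held none of the 9 genes.

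Sites of at least 20 reads were matched on transcript and exact position with Python 3.11.15 and pandas 2.3.3. Means are given with the SD over 2 replicates. The matching was tested on simulated data. Members and lists were chosen with earlier results of these data known. By rule all 9 genes are described, with every shared site where a gene has 6 or fewer and for Serbp1, and otherwise the 3 highest, the 3 lowest and the one differing most between replicates. Alternatives were other coverage minimums, 1 transcript per gene, matching within 5 nt and single replicates. The alternatives for aligned positions and for the coverage ratio of Pabpc1 were chosen after seeing the data. 1 gene of the tissue check is not reported here.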

Additional observations from a re-analysis of the deposited data

How the results depend on the processing

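Without a coverage minimum 61 member positions were shared in place of 38, and 8 in place of 4 were at 0.8 or more in both replicates. With 50 reads the median fraction was 0.275 in place of 0.317, 1 site was at 0.8 or more in both replicates, and the median range across transcripts at aligned positions was 0.0112 in place of 0.0709. The shares over all genes were not computed at these other minimums. Fewer sites enter there: 26 were shared. Keeping 1 transcript per gene left 25 shared sites, and GGACA exceeded the other motifs by 0.284 in place of 0.232. The causes of the shifts in the medians were not tested. From single replicates the median fraction was 0.295 to 0.321 and the GGACA excess 0.20 to 0.270; with n = 2 this says nothing about stability. Matching within 5 nt again gave 38 shared sites. The number of sites at 0.1 or less ran from 3 to 6 and the median signed difference, replicate 2 minus replicate 1, from -0.0270 to -0.0119 over the coverage minimums and 1 transcript per gene. No paired analysis was possible because the samples form 1 group. Depth in replicate 1 limits Hdlbp and Pabpc4, and depth in both replicates limits Larp1.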

Other observations

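Transcripts below the minimum of 20 reads add values of low precision. The Ybx1 transcript ENSMUST00000139897.7 listed a GGACC at position 22 with fractions of 0.750 (coverage 5 reads) and 0.600 (coverage 7), aligned with position 136 of the deep transcript, where the fraction was 0.233 and 0.232 over 351 and 790 reads. In Serbp1, ENSMUST00000204293.2 listed the intermediate GGACA at position 711 with 0.333 over 7 reads and 0.308 over 15, and the GGACC at position 1285 with 0 over 7 and 14 reads. For Pabpc4, a GGACC was listed at position 2800 of ENSMUST00000106241.7 with 0.750 over 10 reads and 0.556 over 18, and at position 2768 of ENSMUST00000106243.7 with 0.667 over 8 and 1 over 11. Far downstream on G3bp1, an AGACT at position 6491 had 0.70 over 12 reads and 0.667 over 17, above every shared site of that gene.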
